A study of Mus musculus with 21 samples.

Results

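The 7 genes described here, Nr4a1, Nr4a2, Nr4a3, Crem, Sik1, Per1 and Gem, are genes that cAMP signalling is known to switch on through the transcription factor CREB. They were chosen by gene name from the 23713 genes of the deposited count table, and all 7 were found. RNA was sequenced in bulk from keratinocytes of mouse tail skin in 3 models of basal cell carcinoma (BCC), a skin tumour driven by Hedgehog signalling, with 4 tumour (BCC) and 3 tumour-free control (Con) libraries per model. SmoM2 is an activated form of the Hedgehog signal transducer Smoothened, sampled 29 days after tumour induction (batch A). Gnas-eKO names a knockout of Gnas, the stimulatory G protein alpha subunit that raises cAMP, sampled at 42 days (batch B). PKI names an inhibitor of protein kinase A, sampled at 57 days (batch C). The labels used here do not give the construct of PKI, the promoter or Cre that drives any allele, the genotype of the Con mice, or strain and age. Within each model BCC and Con share a batch, but between models the day and the batch cannot be told apart from the model. The comparison asks how the 7 genes differ between tumour-bearing and tumour-free epidermis in each model.

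In the textbook pathway, a receptor acts through the Gnas protein to raise cAMP, cAMP frees the catalytic subunits of protein kinase A, and the kinase phosphorylates CREB bound at the cAMP response element (CRE) of its target genes. Coactivators of the CRTC family join CREB there, and salt-inducible kinases such as the product of Sik1 hold them out of the nucleus, a negative feedback. In skin, protein kinase A is also known to restrain Hedgehog signalling by marking Gli transcription factors for processing into repressors. Many of the 7 genes also respond to growth factor, calcium and stress signals, so none of them reads CREB alone.

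Promoter stretches are shown because the CRE is the sequence through which CREB is known to act on such genes. RefSeq windows on GRCm38.p6 run from 250 bases before to 50 after an annotated start and were matched by symbol. Those of 4 of the 7 members were used: Nr4a1, Nr4a2, Nr4a3 and Per1, the last with 2 windows. Crem, Sik1 and Gem are named only. Printed are the bases that precede the RefSeq start and lie in no annotated exon of the gene, 5′ to 3′ on the gene's strand, with capitals marking the short CRE motif TGACG or its reverse complement CGTCA. The Nr4a1, Nr4a3 and Per1 windows belong to start sites inside the full span of those genes. The stretches lie at chr15:101266596-101266845 (Nr4a1, plus strand), chr2:57124004-57124253 (Nr4a2, minus strand), chr4:48045055-48045152 (Nr4a3, plus strand), chr11:69098699-69098947 (Per1 promoter 1, plus strand) and chr11:69099902-69100151 (Per1 promoter 2, plus strand).
Nr4a1: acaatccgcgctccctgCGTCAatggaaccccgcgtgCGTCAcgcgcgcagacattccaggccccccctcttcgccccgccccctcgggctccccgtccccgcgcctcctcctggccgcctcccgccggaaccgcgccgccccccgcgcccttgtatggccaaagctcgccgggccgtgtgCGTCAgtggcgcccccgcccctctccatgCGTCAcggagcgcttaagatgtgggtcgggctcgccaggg
Nr4a2: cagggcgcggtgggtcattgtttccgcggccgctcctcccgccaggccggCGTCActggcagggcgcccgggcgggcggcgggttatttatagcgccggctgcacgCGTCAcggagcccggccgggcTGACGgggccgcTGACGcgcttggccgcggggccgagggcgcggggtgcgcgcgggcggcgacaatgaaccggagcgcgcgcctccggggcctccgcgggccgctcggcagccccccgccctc
Nr4a3: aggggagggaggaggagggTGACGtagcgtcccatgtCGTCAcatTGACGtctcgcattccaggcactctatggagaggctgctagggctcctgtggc
Per1 promoter 1: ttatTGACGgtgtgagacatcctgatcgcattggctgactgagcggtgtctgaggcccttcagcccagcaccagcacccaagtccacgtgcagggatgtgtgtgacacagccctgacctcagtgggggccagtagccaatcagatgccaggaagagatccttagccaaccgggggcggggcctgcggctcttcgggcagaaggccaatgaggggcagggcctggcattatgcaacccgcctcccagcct
Per1 promoter 2: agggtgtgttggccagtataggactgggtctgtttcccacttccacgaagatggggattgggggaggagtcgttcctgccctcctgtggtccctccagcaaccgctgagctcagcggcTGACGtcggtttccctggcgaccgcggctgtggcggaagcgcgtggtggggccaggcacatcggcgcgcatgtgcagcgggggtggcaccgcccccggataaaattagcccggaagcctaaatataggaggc

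Each of the 3 Nr4a windows held 4 short CRE motifs, counted on both strands. In Nr4a1 they began 233, 213, 69 and 40 bases before the start site. In Nr4a2 they began 200, 144, 123 and 111 bases before it, and in Nr4a3 231, 213, 205 and 147 bases before it, the last of these in an annotated exon and so not printed. Each Per1 window held 1, at 246 and 132 bases before the start, and Per1 promoter 1 also held an E-box (CACGTG), the motif bound by the clock proteins CLOCK and BMAL1, at 166 bases before the start. The full palindrome TGACGTCA was in none of the 5 windows. Of 32851 promoter windows of the same length, 20.8% held the short motif at least once, 0.231% held it at least 4 times, 7.15% held the E-box and 1.79% the full palindrome. A match of letters is a description and not a site shown to be bound.

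**Figure D1:**
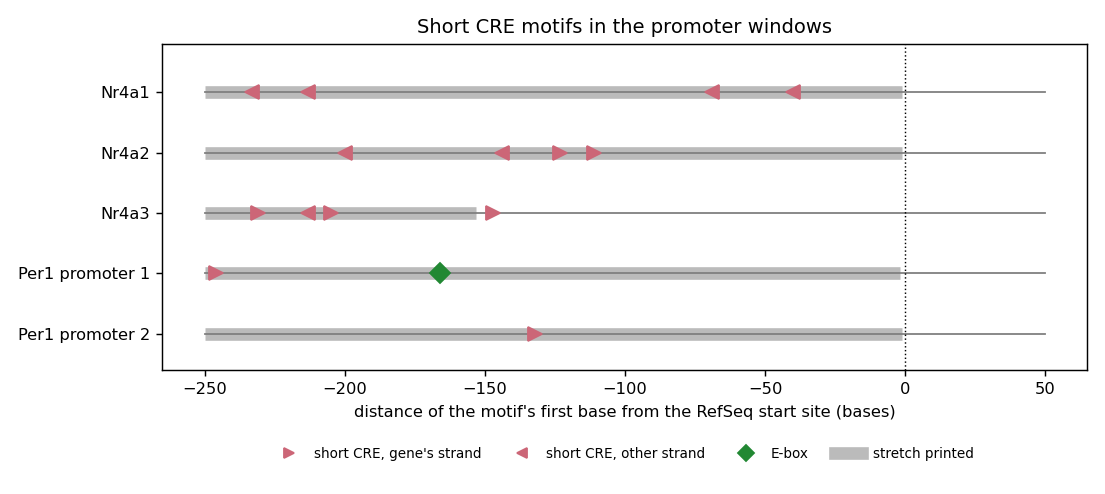
Position of the motifs in the 5 promoter windows, in bases from the RefSeq start site (dotted line at 0). Red triangles mark short CRE motifs and point right on the gene's strand and left on the other, the green diamond marks the E-box, and the thick grey bar is the stretch printed. Each Nr4a window holds 4 triangles and each Per1 window holds 1.

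Library totals ranged from 16645858 to 22251132 counts, so 3 counts amounted to at most 0.189 counts scaled to library size (CPM), and such floors cover counting error only. All 7 members passed the low-count filter in every model. Smo measured 103 ± 8.63 CPM in SmoM2 Con and 298 ± 12.3 CPM in SmoM2 BCC (mean ± SD, n = 3 and 4), and Gnas went from 174 ± 3.00 to 80.4 ± 28.1 CPM in Gnas-eKO with all 4 BCC libraries below the 3 Con libraries (adjusted p = 0.0647, edgeR). Smo was also higher in BCC in PKI (log2 0.53, adjusted p = 0.00187, edgeR) and had a log2 fold change of 0.85 in Gnas-eKO (adjusted p = 0.0503, edgeR), against 1.55 in SmoM2 (PKI minus SmoM2 −1.02, adjusted p = 4.51e-05, edgeR). The mouse gene Pkia, which encodes a protein kinase A inhibitor, measured 4.31 ± 0.636 CPM in PKI Con and 2.77 ± 0.803 CPM in PKI BCC (n = 3 and 4; adjusted p = 0.0956, edgeR), and reads of a PKI construct were not checked. On the first principal component, with 30.9% of the variance, the 9 Con libraries lay between −56.4 and −39.8 and the BCC libraries between 31.8 and 58.6, except Gnas-eKO BCC replicate 2 at −20.1. That library stands apart from its group, so the change of each member in Gnas-eKO is given with and without it. Animal names in the file headers begin with TJ in 10 libraries (SmoM2 Con and all Gnas-eKO), BF in 4 (SmoM2 BCC) and ZQ in 7 (all PKI), and what these letters stand for is not stated. In SmoM2, then, tumour and prefix cannot be told apart for any member, nor in any difference between models that involves SmoM2. None of the 8 keratinocyte markers (such as Krt5 and Krt14) was at 0 in any group. Their summed level was lower in BCC without overlap in SmoM2 (57631 to 74046 CPM in Con and 38786 to 53670 CPM in BCC, with 4 markers lower and 1 higher by the test) and in Gnas-eKO (57948 to 69353 and 30896 to 51349 CPM, 0 called), and overlapped in PKI (52814 to 70793 and 46932 to 76041 CPM, 3 lower and 1 higher). Their part in the members' changes was not tested. In bulk samples, fewer cells of a type and less RNA per cell cannot be told apart.

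Of the 7 genes, 2 differed between BCC and Con in SmoM2 (Nr4a3 higher and Gem lower), none in Gnas-eKO, and 3 in PKI (Nr4a3 higher, Sik1 and Per1 lower). A gene is called here when the adjusted p of edgeR's quasi-likelihood test, over all genes tested, was under 0.05. Among all genes tested the called share was 34.5% in PKI (18.7% higher and 15.8% lower), 29.7% in SmoM2 (16.2% and 13.5%) and 1.63% in Gnas-eKO (1.46% and 0.165%), so in PKI and SmoM2 the members were called about as often as genes in general. The share in Gnas-eKO is not stable, since it rests on 267 genes that became 0 to 1910 with 1 library left out and 2644 in a joint fit of all 21 libraries. In Gnas-eKO 3 members had an unadjusted p under 0.05, a threshold at which no share of all genes was computed. The joint fit called 1 of them, Sik1, while DESeq2 called 0 members and 1535 genes over all. The BCC and Con libraries did not overlap in CPM for 3 members in PKI, 5 in SmoM2 and 2 in Gnas-eKO, against 43.2%, 38.8% and 19.7% of all genes tested. The members had a median log2 fold change of 0.20 in PKI, 0.58 in SmoM2 and 0.14 in Gnas-eKO, against at most 0.02 in size over all genes tested. The fitted change had 1 sign in all 3 models for 6 members (positive for Nr4a1, Nr4a2, Nr4a3 and Crem, negative for Sik1 and Gem), and Per1 was positive in SmoM2 and negative in the other two. The 7 genes thus did not move as 1 block in any of the 3 models.

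**Figure D2:**
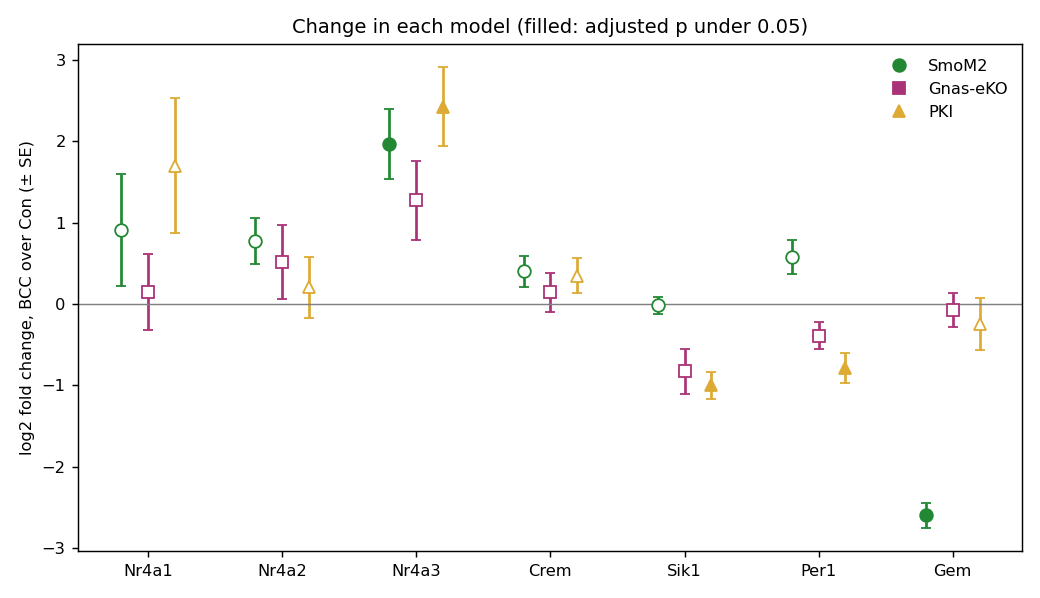
Log2 fold change of BCC over Con for each gene and model, with its standard error as the bar; filled symbols have an adjusted p under 0.05 and open ones do not. Nr4a3 is filled in SmoM2 (1.97) and PKI (2.43), Gem in SmoM2 (−2.60), and Sik1 (−1.0) and Per1 (−0.78) in PKI.

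Per length of their exons, the 7 genes spanned a wide range of levels. Over the 21 libraries the median was 27.1 CPM per kb for Sik1, 21.6 for Per1, 6.13 for Nr4a1, 2.59 for Gem, 0.765 for Crem, 0.687 for Nr4a2 and 0.262 for Nr4a3. Sik1 had the highest mean and Per1 the next in all 6 groups, although their libraries overlapped in every group except SmoM2 Con. Nr4a3 had the lowest mean in all 6, although its libraries overlapped those of Crem and Nr4a2 in Gnas-eKO BCC and in PKI BCC. Crem and Nr4a2, its neighbours in that order, overlapped each other in every group except SmoM2 Con. Nr4a1 and Gem exchanged places by their means, with Gem above Nr4a1 in SmoM2 Con and in both Gnas-eKO groups and below it in the rest. Their libraries overlapped in both Gnas-eKO groups and in PKI Con. The coefficient of variation between libraries of a group ran from 35.8% to 82.1% for Nr4a1, which reached the highest of any member, and from 5.12% to 22.9% for Crem.

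**Figure D3:**
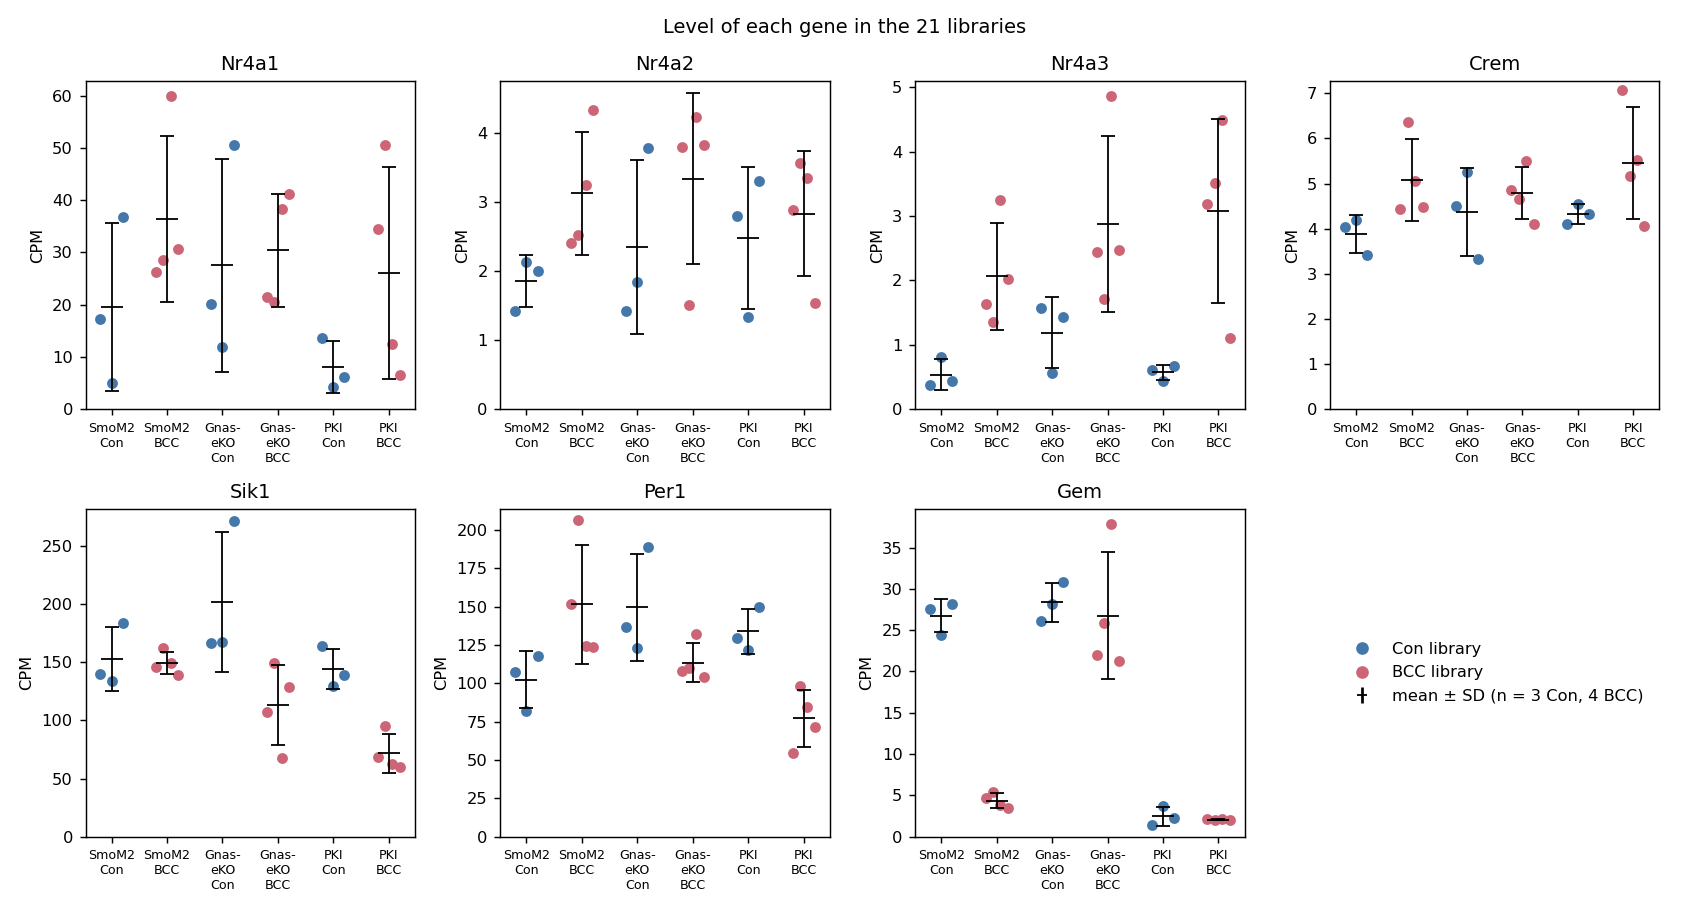
Level of each gene in every library in CPM (linear axis from 0, a separate scale per gene), with blue points for Con, red points for BCC, and black bars for mean and SD (n = 3 Con and 4 BCC). Gem lies at 21.3 CPM or more in SmoM2 Con and both Gnas-eKO groups and at 5.46 CPM or less in the other 3 groups, and Sik1 and Per1 lie lower in PKI BCC than in PKI Con.

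The Nr4a genes encode orphan nuclear receptors that act as transcription factors and are induced within minutes to hours of a stimulus. Nr4a3 (ENSMUSG00000028341.9, GRCm38 chr4:48045153-48086447, plus strand) was the 1 member whose BCC libraries all lay above Con in every model, though at low counts. In SmoM2 it measured 0.367, 0.803 and 0.433 CPM in Con replicates 1 to 3 and 1.63, 1.35, 3.24 and 2.02 CPM in BCC replicates 1 to 4. In Gnas-eKO the values were 1.57, 0.559 and 1.43 CPM in Con and 2.45, 1.72, 4.87 and 2.47 CPM in BCC. In PKI they were 0.608, 0.442 and 0.661 CPM in Con and 3.18, 3.51, 4.49 and 1.10 CPM in BCC. Every BCC library thus lay above every Con library of its own model, by a narrow margin in Gnas-eKO, where the lowest BCC library is the one that stands apart. Nr4a3 rose 3.91-fold in SmoM2 (log2 1.97, SE 0.43, adjusted p = 0.00719, edgeR) and 5.38-fold in PKI (log2 2.43, SE 0.49, adjusted p = 0.00484, edgeR). In Gnas-eKO the log2 fold change was 1.28 (SE 0.48, adjusted p = 0.198, edgeR), and without Gnas-eKO BCC replicate 2 it was 1.46 (adjusted p = 0.093, edgeR). No difference in the Nr4a3 change between 2 models passed the test, with −0.68 for Gnas-eKO minus SmoM2 (SE 0.66, adjusted p = 0.802, edgeR), 0.46 for PKI minus SmoM2 (SE 0.68, adjusted p = 0.661, edgeR) and 1.16 for PKI minus Gnas-eKO (SE 0.70, adjusted p = 0.328, edgeR). The counts behind these values ran from 7 to 14 per library in SmoM2 Con and PKI Con, and on the authors' normalized values with 1 added before the log the changes were smaller, at 0.98 in SmoM2 and 1.30 in PKI, both still called by limma.

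Nr4a1 (ENSMUSG00000023034.7, GRCm38 chr15:101254269-101274795, plus strand), also known as Nur77, had a higher mean in BCC in all 3 models, within a wide spread. In SmoM2 it measured 17.1, 4.88 and 36.7 CPM in Con and 26.2, 28.5, 60.0 and 30.7 CPM in BCC. In Gnas-eKO it measured 20.1, 12.0 and 50.6 CPM in Con and 21.5, 20.5, 38.2 and 41.2 CPM in BCC, and in PKI 13.6, 4.29 and 6.19 CPM in Con and 34.6, 50.6, 12.5 and 6.47 CPM in BCC. The groups overlapped in each model: SmoM2 Con ranged 7.53-fold and PKI BCC 7.82-fold from the lowest to the highest library. None of its changes passed the test, with log2 fold changes of 0.90 in SmoM2 (SE 0.69, adjusted p = 0.390, edgeR), 0.15 in Gnas-eKO (SE 0.47, adjusted p = 0.894, edgeR; 0.30 without BCC replicate 2) and 1.70 in PKI (SE 0.83, adjusted p = 0.167, edgeR). Single libraries moved these values, from 0.45 without Con replicate 2 to 1.72 without Con replicate 3 in SmoM2, and from 1.14 without BCC replicate 2 to 2.31 without Con replicate 1 in PKI, with none past the threshold.

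Nr4a2 (ENSMUSG00000026826.13, GRCm38 chr2:57106830-57124003, minus strand), also known as Nurr1, lay between 1.33 and 4.33 CPM in all libraries. In SmoM2 its 3 Con libraries were at 1.42, 2.12 and 2.00 CPM and its 4 BCC libraries at 2.40, 2.51, 3.24 and 4.33 CPM, without overlap. Its log2 fold change there was 0.77 (SE 0.28, adjusted p = 0.0679, edgeR), which missed the threshold. In Gnas-eKO and PKI the BCC and Con libraries overlapped, with log2 fold changes of 0.52 (SE 0.46, adjusted p = 0.587, edgeR; 0.76 without Gnas-eKO BCC replicate 2) and 0.20 (SE 0.38, adjusted p = 0.705, edgeR).

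Crem (ENSMUSG00000063889.16, GRCm38 chr18:3266048-3337748, minus strand) encodes relatives of CREB, among them the cAMP-induced repressor ICER, which starts at an internal promoter. Counts per gene do not separate ICER from the other Crem transcripts. Crem overlaps Gm6225 on the opposite strand, and since the use of strand in the counting is not stated, its count is uncertain. It was the steadiest member, from 3.32 to 7.09 CPM over all 21 libraries. In SmoM2 its Con libraries were at 4.04, 4.19 and 3.41 CPM and its BCC libraries at 4.43, 6.37, 5.05 and 4.48 CPM, without overlap. Its changes did not pass the test in any model, with log2 fold changes of 0.40 in SmoM2 (SE 0.19, adjusted p = 0.147, edgeR), 0.14 in Gnas-eKO (SE 0.24, adjusted p = 0.789, edgeR; 0.16 without BCC replicate 2) and 0.35 in PKI (SE 0.21, adjusted p = 0.235, edgeR).

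Sik1 (ENSMUSG00000024042.7, GRCm38 chr17:31844250-31855804, minus strand) was lower in PKI tumours and close to level in SmoM2 tumours. In PKI it measured 164, 130 and 139 CPM in Con and 68.2, 95.5, 62.9 and 59.6 CPM in BCC. In SmoM2 it measured 140, 134 and 184 CPM in Con and 146, 162, 150 and 139 CPM in BCC, and in Gnas-eKO 167, 168 and 271 CPM in Con and 107, 149, 67.9 and 128 CPM in BCC. All BCC libraries lay below all Con libraries in PKI and in Gnas-eKO, while in SmoM2 the BCC libraries fell inside the range of Con. Sik1 fell 2.00-fold in PKI (log2 −1.0, SE 0.17, adjusted p = 0.00262, edgeR). The log2 fold change in SmoM2 was −0.02 (SE 0.11, adjusted p = 0.929, edgeR), and the difference, PKI minus SmoM2, was −0.98 (SE 0.22, adjusted p = 0.00559, edgeR). In Gnas-eKO it was −0.83 (SE 0.28, adjusted p = 0.154, edgeR), −0.98 without BCC replicate 2 (adjusted p = 0.0637, edgeR), and −0.84 in the joint fit of all 21 libraries, which called it (adjusted p = 0.0156, edgeR). The difference from SmoM2 was −0.80 in Gnas-eKO (SE 0.32, adjusted p = 0.464, edgeR) and did not pass, and the difference between PKI and Gnas-eKO was −0.17 (SE 0.36, adjusted p = 0.810, edgeR).

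Per1 (ENSMUSG00000020893.17, GRCm38 chr11:69095217-69109960, plus strand) encodes a repressor of the circadian clock. It was lower in PKI tumours than in their controls, and its values in SmoM2 lay the other way. In PKI it measured 130, 122 and 150 CPM in Con and 54.6, 98.1, 84.2 and 71.3 CPM in BCC. In SmoM2 it measured 107, 82.1 and 118 CPM in Con and 151, 206, 124 and 124 CPM in BCC. The groups did not overlap in either model, with BCC below Con in PKI and above Con in SmoM2. Per1 fell 1.72-fold in PKI (log2 −0.78, SE 0.18, adjusted p = 0.0124, edgeR). In SmoM2 the log2 fold change was 0.58 (SE 0.21, adjusted p = 0.0824, edgeR), which missed the threshold, although the DESeq2 Wald test (0.57, adjusted p = 0.0103) and limma on the authors' normalized values (0.56, adjusted p = 0.0475) called it. The difference, PKI minus SmoM2, was −1.36 (SE 0.30, adjusted p = 0.00689, edgeR). In Gnas-eKO the libraries measured 137, 123 and 189 CPM in Con and 108, 110, 132 and 104 CPM in BCC and overlapped, with a log2 fold change of −0.39 (SE 0.17, adjusted p = 0.243, edgeR) and of −0.37 without BCC replicate 2 (adjusted p = 0.253, edgeR). The Gnas-eKO change did not differ past the threshold from that in SmoM2 (−0.96, SE 0.27, adjusted p = 0.256, edgeR) or in PKI (PKI minus Gnas-eKO −0.39, SE 0.26, adjusted p = 0.370, edgeR).

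Gem (ENSMUSG00000028214.13, GRCm38 chr4:11704457-11714752, plus strand) encodes a small GTP-binding protein of the RGK family, which is known to inhibit voltage-gated calcium channels. It had the lowest adjusted p of the members in SmoM2, and its controls differed between models. In SmoM2 it measured 27.6, 24.4 and 28.2 CPM in Con and 4.66, 5.46, 3.84 and 3.53 CPM in BCC. In Gnas-eKO it measured 26.1, 28.2 and 30.8 CPM in Con and 22.0, 25.8, 37.9 and 21.3 CPM in BCC, and in PKI 1.47, 3.73 and 2.28 CPM in Con and 2.11, 2.01, 2.18 and 1.97 CPM in BCC. The SmoM2 BCC libraries thus lay far below their controls, while Gem was high in all 7 Gnas-eKO libraries and low in all 7 PKI libraries, controls included. Gem was 6.05-fold lower in SmoM2 BCC (log2 −2.60, SE 0.16, adjusted p = 3.91e-06, edgeR). The log2 fold change was −0.08 in Gnas-eKO (SE 0.21, adjusted p = 0.878, edgeR; −0.06 without BCC replicate 2) and −0.25 in PKI (SE 0.32, adjusted p = 0.580, edgeR). The change in SmoM2 differed from both, by 2.53 in Gnas-eKO minus SmoM2 (SE 0.27, adjusted p = 0.000697, edgeR) and by 2.36 in PKI minus SmoM2 (SE 0.33, adjusted p = 0.000245, edgeR).

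The animal name prefix moved with the level of Gem. The 10 TJ libraries measured 21.3 to 37.9 CPM (median 26.9), the 4 BF libraries 3.53 to 5.46 CPM (median 4.25) and the 7 ZQ libraries 1.47 to 3.73 CPM (median 2.11). The lowest TJ library was 3.90 times the highest of the 11 others. Of 15640 genes tested in all 3 models, 16 (0.102%) had every TJ library above every other library, a pattern looked for after the values of Gem were seen. Of these 16, 2 including Gem had a ratio of medians at least as large as the 11.8 of Gem. In SmoM2 the TJ libraries are the Con group and the BF libraries the BCC group, the limit given above for all members. Within 1 prefix, Gem showed no called change, either in Gnas-eKO (TJ) or in PKI (ZQ).

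**Figure D4:**
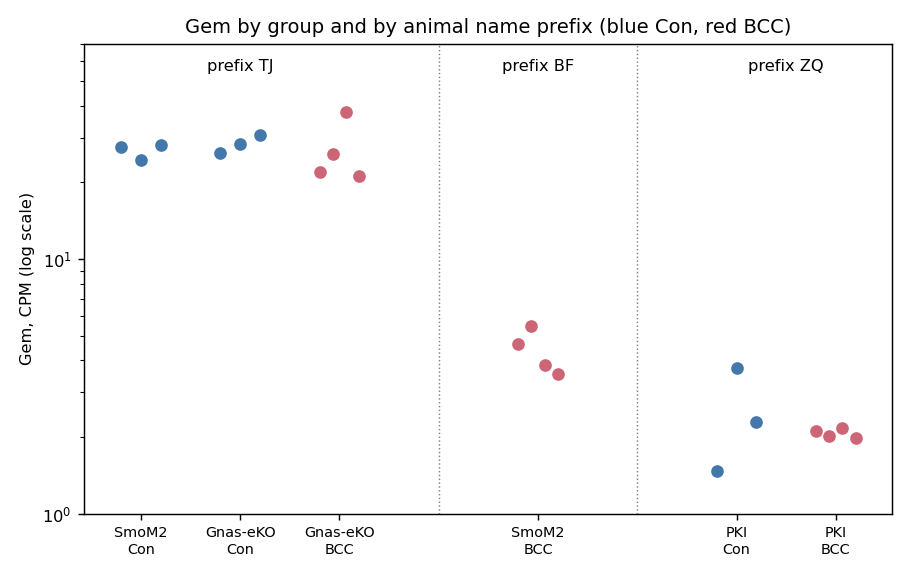
Gem in CPM (log axis) in the 21 libraries, ordered by the letters that open the animal name and then by group, with blue points for Con and red points for BCC. The 10 TJ libraries sit at 21.3 CPM or higher and the 11 BF and ZQ libraries at 5.46 CPM or lower.

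Read as differences between models, 1 member (Gem) passed in Gnas-eKO minus SmoM2, where 0.175% of 17151 genes tested did (0.0758% higher and 0.0991% lower). In PKI minus SmoM2, 3 members passed (Sik1 and Per1 lower, Gem higher), against 24.9% of 17261 genes (12.6% higher and 12.3% lower). In PKI minus Gnas-eKO none of the 7 passed with edgeR, 0 had an unadjusted p under 0.05 and 0 passed with DESeq2, against 9.06% of 17254 genes. Without Gnas-eKO BCC replicate 2 the number of members that passed was still 1 in Gnas-eKO minus SmoM2 and 0 in PKI minus Gnas-eKO. The pairs of differences share libraries, so they are not independent of each other.

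Correlations of log2 CPM between members over the 21 libraries are descriptions here, since the libraries share groups, batches and scaling. The highest was that of Sik1 and Per1 (Pearson r = 0.710), which was 0.311 once the group means were removed. Nr4a2 and Nr4a3 had r = 0.637, and 0.628 within groups, and Nr4a1 had r = 0.524 with Nr4a2 and 0.562 with Nr4a3. Nr4a3 and Crem had r = 0.530, and 0.168 within groups, while Nr4a1 and Sik1 had r = 0.158, and 0.495 within groups. Gem had an r of at most 0.390 with any member. Sik1 had negative r with Nr4a3 (−0.513, and −0.138 within groups) and with Crem (−0.523, and −0.392 within groups).

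Among 12030 genes with sufficient counts, those most like each member over the 21 libraries were named by Pearson r. For Nr4a1 they were Atf3 (r = 0.875), Fosb (0.843) and Dusp1 (0.796), which are immediate early and stress genes, and their r within groups was 0.887, 0.946 and 0.886. For Nr4a3 they were Socs3 (0.856), Porcn (0.852) and D1Ertd622e (0.851), with 0.543, 0.475 and 0.362 within groups. For Nr4a2 they were Arl3 (0.779), Ppid (0.761) and B9d2 (0.742), with 0.809, 0.768 and 0.669 within groups. For Sik1 they were Marveld1 (0.913), Pfkm (0.904) and Slc5a6 (0.900), with 0.759, 0.660 and 0.776 within groups, and for Per1 Btrc (0.841), Agbl3 (0.806) and Coq8a (0.792), with 0.554, 0.868 and 0.301. For Crem they were Unc93b1 (0.734, or 0.524 without the 2 libraries farthest from the median), Gm6210 (0.733) and Parp9 (0.717), with 0.716, 0.583 and 0.619 within groups. For Gem they were Rpsa-ps10 (0.922), Mrgprf (0.911) and Dennd5b (0.892), and their r within groups was 0.442, 0.228 and −0.01. For Gem, Nr4a3, Sik1 and Crem all 3 genes had a lower r within groups than over all libraries. For Nr4a1 all 3 had an r within groups at least as high. The genes were chosen for their high r over all libraries, so no conclusion is drawn from a lower r within groups.

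**Figure D5:**
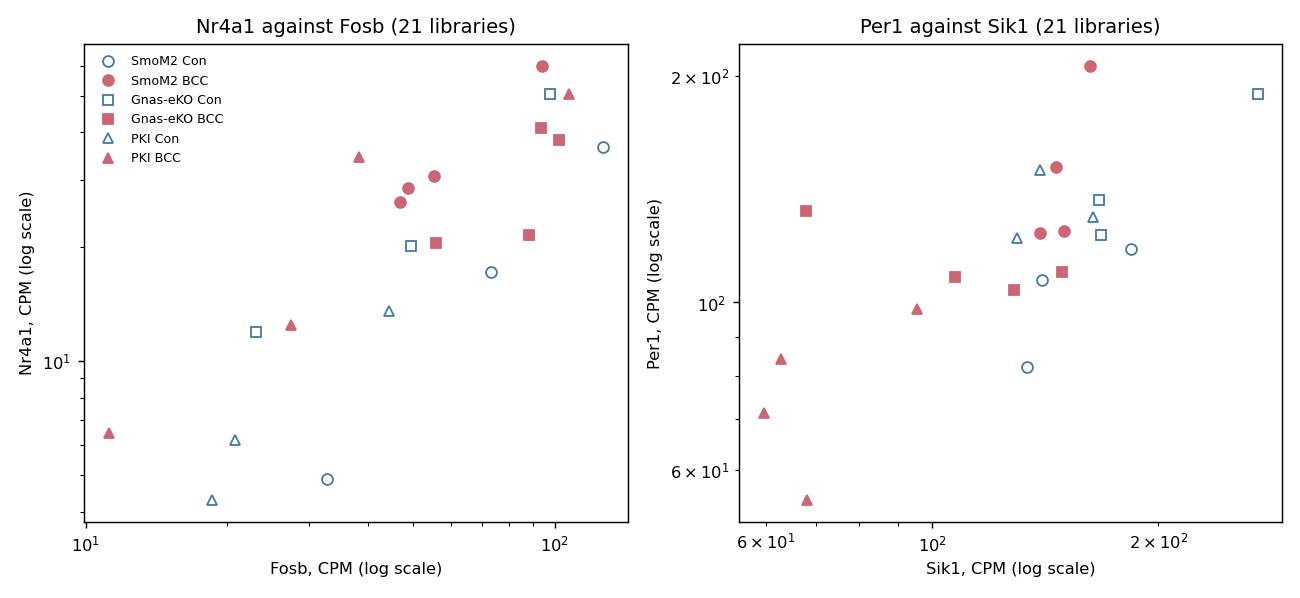
Left, Nr4a1 against Fosb, and right, Per1 against Sik1, in the 21 libraries, in CPM on log axes, with blue open symbols for Con, red filled symbols for BCC, and circles, squares and triangles for SmoM2, Gnas-eKO and PKI. Nr4a1 and Fosb rise together within groups (r = 0.946), and on the right the 4 PKI BCC libraries lie toward the lower left.

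Immediate early genes are induced by many stimuli, and their level moved with Nr4a1. The mean of 15 immediate early and stress genes had r = 0.831 with Nr4a1 over the 21 libraries and 0.922 within groups. In the same order the values were 0.551 and 0.608 for Nr4a2, and 0.553 and 0.491 for Nr4a3. The mean of 11 other cAMP-responsive genes, from a list that shares genes with the first and without its low-level genes Pde4d, Areg and Ppargc1a (mean log2 CPM under 2), had r = 0.887 with Nr4a1 over the libraries and 0.909 within groups. Of the 15, 7 rose in PKI and none fell, led by Egr1 (log2 1.80, SE 0.41, adjusted p = 0.0165, edgeR) and Junb (log2 1.16, SE 0.29, adjusted p = 0.0193, edgeR), where 18.7% of all genes tested rose. In SmoM2 none rose and 2 fell, the heat shock genes Hspa1b (log2 −0.50) and Hspa1a (log2 −0.47), where 13.5% of all genes fell. DESeq2 called 4 of the 15 lower there, and 5307 of all genes in either direction. In Gnas-eKO edgeR called 0 of the 15, with 5 at an unadjusted p under 0.05, all higher in BCC. DESeq2 called 4 higher, and edgeR without BCC replicate 2 called 5 higher. Those settings also called more of all genes, 1535 and 1910, against 267 of 16409 in the main fit. No share of all genes at an unadjusted p under 0.05 was computed. The median log2 fold change of the 15 was 0.69 in PKI, −0.22 in SmoM2 and 0.49 in Gnas-eKO. Their part in the Nr4a values was not tested.

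Other cAMP-responsive genes were read from a list of 14, of which 6 (Fos, Fosb, Junb, Egr1, Dusp1 and Btg2) also stand among the immediate early genes. In PKI 7 of the 14 rose and none fell, where 18.7% of all genes tested rose, and the median log2 fold change of the list was 0.74. The highest was Areg, the gene of the EGF receptor ligand amphiregulin, which went from 0.840 ± 0.288 to 11.5 ± 2.55 CPM (mean ± SD, n = 3 Con and 4 BCC; log2 3.77, SE 0.29, adjusted p = 7.75e-05, edgeR). In SmoM2 3 of 13 tested rose and none fell (median 0.10), among them Pde4d, a cAMP phosphodiesterase (log2 1.32, SE 0.26, adjusted p = 0.00389, edgeR), and the repressor gene Nfil3 (log2 0.64, SE 0.20, adjusted p = 0.0425, edgeR), where 16.2% of all genes rose. In Gnas-eKO edgeR called 0 of 13 (median 0.49), with 4 at an unadjusted p under 0.05, while DESeq2 called 2 higher, as did edgeR without BCC replicate 2. Of all genes, DESeq2 called 1535 and edgeR without that library 1910, against 267 of 16409 in the main fit. Within PKI, then, Sik1 and Per1 fell while 7 other genes known to respond to cAMP rose.

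The machinery upstream of the members showed small changes. Of 11 genes for CREB, its relative Atf1, coactivators, protein kinase A catalytic subunits and salt-inducible kinases, 2 rose in SmoM2 and none fell, close to the 16.2% of all genes that rose there. They were the coactivator gene Crtc3 (log2 0.61, SE 0.10, adjusted p = 0.0015, edgeR) and Creb1 (log2 0.33, SE 0.10, adjusted p = 0.0359, edgeR). In PKI Crtc3 rose (log2 0.42, SE 0.11, adjusted p = 0.0151, edgeR) and 3 genes fell, among them Sik2 (log2 −0.57, SE 0.14, adjusted p = 0.0111, edgeR) and the catalytic subunit gene Prkacb (log2 −0.42, SE 0.12, adjusted p = 0.0212, edgeR), where 15.8% of all genes fell. In Gnas-eKO edgeR called 0 of the 11, with or without BCC replicate 2, as did DESeq2, and 0 had an unadjusted p under 0.05.

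Clock genes moved beside Per1 in PKI. Of 14 other clock genes, 9 fell and 1 rose in PKI, where 15.8% of all genes fell and 18.7% rose, and the list's median log2 fold change was −0.95. The largest falls were in the output genes Dbp (log2 −1.35, SE 0.14, adjusted p = 0.000269, edgeR) and Hlf (log2 −1.26, SE 0.15, adjusted p = 0.000686, edgeR), and the repressor gene Bhlhe40 rose (log2 0.56, SE 0.12, adjusted p = 0.00653, edgeR). In SmoM2 4 fell and 1 rose (median −0.26), where 13.5% of all genes fell and 16.2% rose, with falls in Nr1d1 (log2 −0.78, SE 0.19, adjusted p = 0.0184, edgeR) and Arntl, which encodes BMAL1 (log2 −0.75, SE 0.12, adjusted p = 0.00136, edgeR), and a rise in the repressor gene Bhlhe41 (log2 1.55, SE 0.10, adjusted p = 5.49e-06, edgeR). In Gnas-eKO edgeR called 0 of 14 (median −0.27), with 4 at an unadjusted p under 0.05. DESeq2 called 1 higher there, among 1535 of all genes, and edgeR without BCC replicate 2 called 4 lower, among 1910 of all genes. The labels give no time of day for the collection of cells, and its part in the values of Per1 was not tested.

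Markers of other cell types differed between BCC and Con as well, and not in the same way in each model. Over all genes tested, 18.7% rose in PKI, 16.2% in SmoM2 and 1.46% in Gnas-eKO, while 15.8%, 13.5% and 0.165% fell. In PKI, 6 of 6 Langerhans and antigen-presenting cell markers rose (summed 142 to 300.2 CPM in Con and 613 to 1086 CPM in BCC), as did 5 of 7 T cell markers (38.6 to 61.5 CPM and 58.9 to 107 CPM) and 4 of 6 tested neutrophil and macrophage markers (18.4 to 25.9 CPM and 57.7 to 85.1 CPM, with Csf3r at 0 in Con), and 5 of 6 melanocyte markers fell (167 to 217 CPM and 82.0 to 130 CPM), where 15.8% of all genes fell. In SmoM2 and Gnas-eKO the summed T cell level lay lower in BCC without overlap, at 116 to 151 CPM in Con and at most 68.9 CPM in BCC in SmoM2, where 1 of 5 tested markers fell, and at 142 to 149.5 and 39.9 to 109 CPM in Gnas-eKO, where 0 were called. The median log2 fold change of the 5 tested T cell markers had the other sign, at 0.23 in SmoM2 and 0.39 in Gnas-eKO, so the lower sum does not stand for most of these markers. The neutrophil and macrophage sum was 21.5 to 29.7 CPM in SmoM2 Con and 14.2 to 17.5 CPM in SmoM2 BCC (1 of 5 tested fell), and it overlapped in Gnas-eKO. Of the melanocyte markers 2 of 6 fell in SmoM2 and 0 were called in Gnas-eKO (median log2 fold change 0.22), and their sum overlapped in both. The endothelial cell sum was at most 5.03 CPM in any library, and 1 of 2 tested markers rose in SmoM2 and 0 in Gnas-eKO and PKI. The Langerhans and antigen-presenting cell sum was 231 to 286 and 302 to 383 CPM in SmoM2, with 1 of 6 markers higher and a median log2 fold change of 0.09, and 256 to 331 and 352 to 859 CPM in Gnas-eKO, with 0 called and a median of 0.53. Of 6 fibroblast markers, 3 rose in PKI, 2 in SmoM2 and 1 in Gnas-eKO, and their sum was 17.2 to 39.8 CPM in SmoM2 Con and 387 to 525 CPM in SmoM2 BCC, 15.9 to 27.4 and 94.3 to 579 CPM in Gnas-eKO, and 15.8 to 43.5 and 84.4 to 145 CPM in PKI. The fibroblast sum was thus higher in BCC without overlap in all 3 models. The part of any of these cells in the values of the members was not tested.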

How the data were processed

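Bulk polyA RNA was sequenced from 21 tail keratinocyte libraries. The submitters' processing notes name bcl2fastq 2.20, cutadapt 1.18, STAR 2.7.0f, Partek and the build mm10. The authors deposited estimated counts per gene, of which 33.1% were not whole, and a TMM-normalized signal per gene, used for 1 alternative. Use of strand in counting is not given in the sources used here.

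Rounded counts entered edgeR 4.0.16 under R 4.3.3 (TMM, filterByExpr by group, robust quasi-likelihood test, Benjamini-Hochberg adjustment over all genes tested), with the 7 libraries of a model, or the 14 of 2 models for differences between effects. The SE of a log2 fold change is its size over the root of the test's F. CPM used TMM-scaled totals and, per kb, exon lengths from GENCODE M21. Alternatives used DESeq2 1.42.0, limma 3.58.1, other scaling, no filter, a joint fit, a replicate block and leaving out each library. Checks of the gene lists without Gnas-eKO BCC replicate 2 and with DESeq2 were added after seeing the data. Likeness took the 3 highest r of log2 CPM (prior count 2, mean at least 2). Genes of other lists were named when among the 2 largest called changes in a direction.

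The members and lists were chosen with earlier results of these data known. Every pair of libraries in a group differed beyond counting noise (lowest chi-square over its degrees of freedom 8.93). The labels do not say whether animals shared litters, so p-values measure the spread between these libraries.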

Additional observations from a re-analysis of the deposited data

Results flagged for a closer look

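Nr4a1 in SmoM2 BCC replicate 3 measured 60.0 CPM, far from the 26.2, 28.5 and 30.7 CPM of the other 3 libraries. Nr4a2 in Gnas-eKO BCC replicate 2 measured 1.50 CPM, against 3.79, 3.82 and 4.23 CPM in the others, and this is the library that stands apart on the first principal component. These were 2 of the 21 combinations of a member and a group of 4 libraries examined, and chance alone sets a library apart in this way in about 1 of 20 groups.

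The change between BCC and Con differed between models in 4 cases, by edgeR's test of the difference. Gem differed by 2.53 on the log2 scale in Gnas-eKO minus SmoM2 (adjusted p = 0.000697, edgeR) and by 2.36 in PKI minus SmoM2 (adjusted p = 0.000245, edgeR). Sik1 differed by −0.98 (adjusted p = 0.00559, edgeR) and Per1 by −1.36 (adjusted p = 0.00689, edgeR) in PKI minus SmoM2. In all 4 cases the SmoM2 Con and BCC animals also differ in name prefix, so tumour and prefix cannot be told apart.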

How the results depend on the processing

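The 5 called changes of members (Nr4a3 and Gem in SmoM2, Nr4a3, Sik1 and Per1 in PKI) kept direction and call under the 6 other alternatives and in all 7 fits with 1 library left out. Leaving out 1 library gave 2, 0 and 3 members called in SmoM2, Gnas-eKO and PKI, and 3613 to 4627, 0 to 1910 and 4057 to 5466 genes called. In Gnas-eKO the count of 267 genes became 0 without Con replicate 1 or 2, 4 without Con replicate 3, 38 without BCC replicate 1, 1910 without BCC replicate 2 and 59 without BCC replicate 4. It was 1535 with DESeq2, 2644 in the joint fit, which called 1 member, and 135 with the replicate block.

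With 1 library left out, 18 values of single members changed sign, in changes that had not passed the test, and 423 kept sign and call. Their ranges were −0.11 to 0.14 for Sik1 in SmoM2, −0.21 to 0.93 for Nr4a1, −0.024 to 0.30 for Crem and −0.29 to 0.022 for Gem in Gnas-eKO, and −0.090 to 0.47 for Nr4a2 and −0.53 to 0.16 for Gem in PKI. For differences between models they were −1.57 to 0.027 (Nr4a1) and −0.51 to 0.27 (Nr4a2) in Gnas-eKO minus SmoM2, −0.027 to 1.42 (Nr4a1) and −0.20 to 0.069 (Crem) in PKI minus SmoM2, and −0.45 to 0.24 (Gem) in PKI minus Gnas-eKO.

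Deviations of same-numbered libraries had r over 0.1 in 4 of 9 pairs (−0.127 to −0.0867 in SmoM2, 0.0411 to 0.184 in Gnas-eKO, −0.0662 to 0.282 in PKI), and the labels do not say what a number shares, so numbers were not taken as pairs. With the replicate block Sik1 was 0.027 in SmoM2, Crem 0.0089 in PKI minus SmoM2 and Nr4a2 0.036 in PKI minus Gnas-eKO, each a change of sign, and Per1 in PKI minus SmoM2 was −1.43 (adjusted p = 0.0516, edgeR), so that 2 members passed there. The cause of these changes was not tested. Nr4a3, with 7 to 14 counts in SmoM2 Con and PKI Con libraries, is the member most limited by depth.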
